A study of Mus musculus with 10 samples.

Results

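The genes described here are 8 early response genes that cyclic AMP (cAMP) and the transcription factor CREB are known to induce: *Nr4a1*, *Nr4a2* and *Nr4a3*, *Crem*, *Pde4b* and *Pde4d*, *Sik1* and *Per1*. They were taken as the rows of the deposited count table whose Ensembl identifiers carry these mouse symbols in GENCODE M21 on GRCm38, and they make up 8 of the 45706 genes listed. All 8 passed the filter on low counts that left 14550 genes for testing. The members were named for their known place downstream of prostaglandin E2 (PGE2) and not by a threshold on these values. Earlier results of these data were known when they were chosen.

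RNA came from 10 whole tumors of a *Braf*-driven mouse melanoma cell line, collected 4 days after subcutaneous implantation into C57BL/6 hosts labelled 8 weeks old. Tumor cells were either COX-competent (*Ptgs*+/+) or had lost *Ptgs1* and *Ptgs2*, the genes of COX-1 and COX-2, by CRISPR/Cas9 (*Ptgs*-/-). Untreated mice gave 4 *Ptgs*+/+ and 3 *Ptgs*-/- tumors, and another 3 *Ptgs*-/- tumors came from mice given 200 µg anti-NK1.1 with 30 µg anti-asialo GM1 on days 0 and 2 to deplete NK cells. All groups share the oncogenic *Braf* background, the loss of p16INK4a and hosts with intact *Ptgs* genes, so host cells in a *Ptgs*-/- tumor could still make PGE2. The sources do not say whether the *Ptgs*-/- line is a single clone, and no *Ptgs*+/+ tumor of an NK cell-depleted mouse is in the design. The labels number the tumors but do not say whether each came from a mouse of its own, so p-values measure the spread between these samples.

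In the canonical pathway, PGE2 binds the receptors EP2 and EP4, which act through a stimulatory G protein on adenylyl cyclases, and the cAMP they make releases the catalytic subunits of protein kinase A (PKA). PKA phosphorylates CREB at cAMP response elements, and a small set of genes is then transcribed within minutes to hours. Among these are transcription factors (the NR4A receptors, CREM), phosphodiesterases that break cAMP down again (PDE4B, PDE4D), a kinase that restrains the CREB coactivators (SIK1) and a clock repressor (PER1). Calcium, growth factor and stress signals induce several of the same genes.

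The libraries held 8150556 to 12839174 counts, and 3 counts, taken as the detection floor, corresponded to 0.234 to 0.368 CPM, the count of a gene scaled by the library's total. The targeted genes followed the labels. *Ptgs2* stood at 94.4 to 347 CPM in *Ptgs*+/+ libraries, 27.0 to 74.8 CPM in *Ptgs*-/- libraries and 40.2 to 49.3 CPM with NK cell depletion, and *Ptgs1* stood at 128 to 170 CPM, 77.0 to 105 CPM and 95.3 to 97.8 CPM. The lowest *Ptgs2* value of *Ptgs*+/+ was that of replicate 3, and the other 3 libraries were at 283 to 347 CPM. Transcripts can still be counted after an edit that stops the protein. Of the melanocytic markers that would define a pigmented melanoma, *Mlana* had no count in any *Ptgs*+/+ library and *Tyrp1* had none in the 7 libraries of untreated mice, whereas *Mitf* stood at 17.4 to 33.1 CPM over all libraries. Replicate 3 of *Ptgs*+/+ stood apart from its group in other genes as well. It had 86 genes of at least 10 CPM in the other *Ptgs*+/+ libraries at under 1/3 of their lowest value, against 0 to 4 genes in each of the other *Ptgs*+/+ libraries, and *Nr4a1* is among the 86. In *Ptgs*-/- replicate 1 there were 39 such genes and no member among them. *Ptgs*+/+ replicate 4 and *Ptgs*-/- replicate 3 carry another experiment code in their labels than the other 8 libraries.

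Loss of COX in the tumor cells went with lower levels of part of the set. In *Ptgs*-/- against *Ptgs*+/+ tumors of untreated mice, 3 of the 8 members fell (*Nr4a2*, *Pde4b* and *Crem*), none rose and 5 did not pass the test. Over all genes tested, 11% fell and 12.1% rose. When the *Ptgs*-/- tumors of depleted mice were set against *Ptgs*+/+ tumors, 4 of the 8 fell (the same 3 and *Nr4a3*) and none rose, where 5.87% of all genes fell and 6.63% rose. Between *Ptgs*-/- tumors of untreated and of NK cell-depleted mice, *Nr4a3* was higher in the untreated mice and the other 7 did not pass, beside 0.515% of all genes higher and 0.921% lower. Passing means a Benjamini-Hochberg adjusted p at or under 0.05 over all 14550 genes, from the quasi-likelihood test of edgeR. These comparisons share libraries, so their counts are not independent of each other. With the study's added threshold of a log2 fold change of at least 1.5 in either direction, *Nr4a2* alone was called in both comparisons with *Ptgs*+/+, where 4.15% and 2.71% of all genes were, and no member was called for NK cell depletion, where 1.15% were. The median log2 fold change of the members was -0.63 for *Ptgs*-/- against *Ptgs*+/+, -0.93 for *Ptgs*-/- with NK cell depletion against *Ptgs*+/+ and 0.03 between the *Ptgs*-/- groups, and the median of all genes was -0.01 in each. On CPM scaled by TMM factors, 3 members lay lower without overlap between the libraries in *Ptgs*-/- against *Ptgs*+/+ tumors (*Nr4a2*, *Pde4b* and *Crem*), where 15.2% of all genes lay lower and 15.4% higher without overlap. With NK cell depletion 5 members did so against *Ptgs*+/+ (these 3, *Nr4a3* and *Pde4d*), where 13.1% of all genes lay lower and 13.6% higher. Between the *Ptgs*-/- groups *Nr4a3* lay higher without overlap in untreated mice, as 9.31% of all genes did. In bulk tumors, fewer cells that express a gene and less RNA per cell cannot be told apart.

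**Figure D1:**
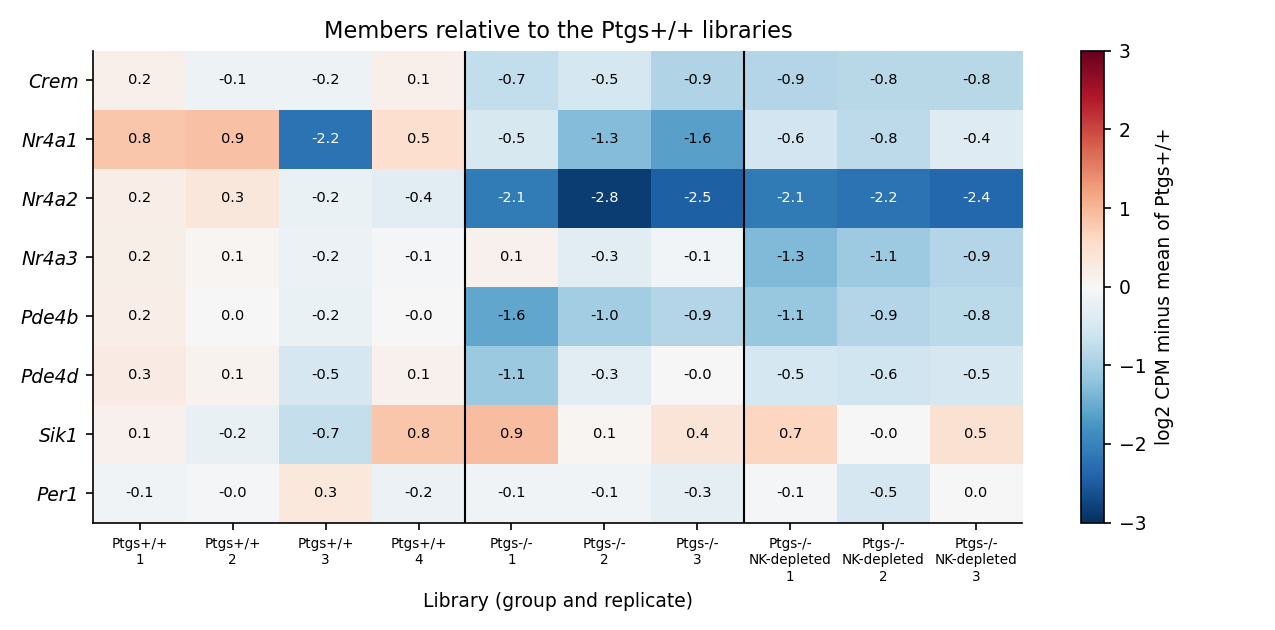
Heat map of the 8 members (vertical axis) in the 10 libraries (horizontal axis, group and replicate), coloured by log2 CPM minus the mean log2 CPM of the 4 *Ptgs*+/+ libraries. *Nr4a2* lies between -2.85 and -2.11 in the 6 *Ptgs*-/- libraries, and *Nr4a1* of *Ptgs*+/+ replicate 3 lies at -2.21 within its own group.

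The summed level of the 8 members was 221 to 363 CPM in *Ptgs*+/+ libraries, 109 to 138 CPM in *Ptgs*-/- libraries and 119 to 138 CPM with NK cell depletion. *Nr4a2* contributed 45.5% of that sum on average in *Ptgs*+/+ tumors, 20.6% in *Ptgs*-/- tumors and 22.3% with NK cell depletion. The reads come from transcript 3′ ends, so a count does not scale with gene length. How fully the reads of each gene were captured and counted was not measured. Levels of different members therefore compare counted reads and not transcript numbers.

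The NR4A receptors are orphan nuclear receptors whose activity follows their abundance, and CREB is known to act on their promoters. RefSeq promoter sequences (GRCm38.p6) were matched by symbol for 6 of the 8 members, at 10 transcription starts. *Crem* and *Sik1* had no match, so their promoters were not searched. The stretches before the start are shown for the NR4A genes because these 3 related promoters held the most cores of the members matched, while the levels of the 3 genes followed different patterns. The 250 bases before each start were searched on both strands for the core of the cAMP response element, TGACG or its complement CGTCA, and for the palindrome TGACGTCA, in which both overlap. Capitals mark the core, and each sequence is written 5′ to 3′ on the gene's strand. The stretches are chr15:101266596-101266845 (plus strand, *Nr4a1*, inside the longer gene model but in no exon of it), chr2:57124004-57124253 (minus strand, *Nr4a2*, outside the gene model) and chr4:48045055-48045152 (plus strand, *Nr4a3*, 98 bases that end where the first annotated exon begins).
Nr4a1: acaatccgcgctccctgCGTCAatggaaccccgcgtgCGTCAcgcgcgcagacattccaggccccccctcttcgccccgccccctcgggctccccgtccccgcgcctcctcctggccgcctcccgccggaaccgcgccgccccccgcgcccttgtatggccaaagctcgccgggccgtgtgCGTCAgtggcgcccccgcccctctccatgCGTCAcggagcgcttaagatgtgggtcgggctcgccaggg
Nr4a2: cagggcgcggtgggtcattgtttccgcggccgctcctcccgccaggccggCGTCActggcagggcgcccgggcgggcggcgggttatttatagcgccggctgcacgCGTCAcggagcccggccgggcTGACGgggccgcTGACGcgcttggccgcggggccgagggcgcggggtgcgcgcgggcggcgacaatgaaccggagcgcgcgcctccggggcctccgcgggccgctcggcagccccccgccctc
Nr4a3: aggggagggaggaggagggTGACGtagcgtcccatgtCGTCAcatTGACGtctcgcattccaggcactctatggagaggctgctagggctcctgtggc
Each of the 3 windows of 250 bases held 4 cores, of which the fourth of *Nr4a3* lies in the exonic part not printed. At least 4 cores stood in 45 of the 32851 promoter windows of the table, or 0.137%, and at least 1 core in 17.8%. The first of 4 *Pde4b* starts held 1 core and the other 3 held none, both *Per1* starts held 1 each, and the *Pde4d* start held none. The palindrome was in none of the windows searched for these members, which leave out *Crem* and *Sik1*, and in 1.55% of all windows. A match is a string of letters in this window and not a measured binding site.

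*Nr4a2* (ENSMUSG00000026826, chromosome 2 from 57106830 to 57124003, minus strand) had the largest fold change of the 8 members. Its level was 154, 172, 118 and 106 CPM in the 4 *Ptgs*+/+ libraries, 31.3, 18.7 and 24.6 CPM in the *Ptgs*-/- libraries, and 31.1, 29.0 and 26.2 CPM with NK cell depletion. Every *Ptgs*+/+ library was above every *Ptgs*-/- library, and the lowest *Ptgs*+/+ value was 3.38 times the highest of untreated *Ptgs*-/- tumors. Mean levels were 137 ± 30.6 CPM in *Ptgs*+/+ (SD, n = 4), 24.9 ± 6.28 CPM in *Ptgs*-/- (SD, n = 3) and 28.8 ± 2.46 CPM in depleted mice (SD, n = 3). On the log2 scale *Nr4a2* was lower by a fold change of -2.53 (SE 0.22) in *Ptgs*-/- tumors, which is 5.78-fold, with an adjusted p of 3.95e-05. With NK cell depletion it differed from *Ptgs*+/+ by -2.29 (SE 0.21), an adjusted p of 7.99e-05. The groups of *Ptgs*-/- tumors overlapped, and the difference between them was -0.24 with a 95% interval of -0.72 to 0.24. Within the libraries of the first experiment code alone, the change in untreated mice was -2.59.

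*Nr4a1* (ENSMUSG00000023034, chromosome 15 from 101254269 to 101274795, plus strand) had the largest SD of the members among *Ptgs*+/+ libraries. The level was 93.7, 96.1, 11.3 and 74.4 CPM in the 4 *Ptgs*+/+ libraries in the order of their replicates. It was 37.7, 21.2 and 17.0 CPM in *Ptgs*-/- tumors and 35.1, 30.6 and 40.03 CPM with NK cell depletion. *Ptgs*+/+ replicates 1, 2 and 4 were above all 6 *Ptgs*-/- libraries, whereas replicate 3 was below all of them. The value of that library rests on 129 reads. Over all libraries the log2 fold change was -1.51 (SE 0.55, 95% interval -2.71 to -0.31) in *Ptgs*-/- against *Ptgs*+/+ tumors, and its adjusted p of 0.068 missed the threshold. With NK cell depletion the 95% interval ran from -2.17 to 0.17 and the adjusted p was 0.259. Without *Ptgs*+/+ replicate 3, the changes were -1.87 (adjusted p = 0.000746) and -1.36 (adjusted p = 0.00517), so that both were called. Leaving out the library whose own *Nr4a1* value stands apart narrows the spread. These fits therefore describe how far the result depends on that library and are no separate evidence. *Nr4a1* was also called in untreated mice with no filter on low counts (adjusted p = 0.00637) and with edgeR's likelihood ratio test (adjusted p = 0.0273).

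Another pathway gene was low in *Ptgs*+/+ replicate 3. *Crtc2*, a CREB coactivator that SIK kinases hold in the cytoplasm, was at 0.176 CPM there and at 3.40 to 14.3 CPM in the other *Ptgs*+/+ libraries, although it also varied from 1.19 to 14.3 CPM among *Ptgs*-/- libraries of untreated mice. The genes whose levels ran closest to *Nr4a1* over the 10 libraries were *Pole2*, *Cers2* and *Sec23a*, a polymerase subunit, a ceramide synthase and a vesicle coat protein, with a Pearson r of 0.98 to 0.99. After the group means were subtracted r was still 0.98 for each, and each had its lowest value in replicate 3 of *Ptgs*+/+. How this library came to differ was not tested.

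*Nr4a3* (ENSMUSG00000028341, chromosome 4 from 48045153 to 48086447, plus strand) followed another pattern. It stood at 9.66, 8.97, 7.64 and 8.27 CPM in *Ptgs*+/+ libraries, at 9.45, 6.83 and 8.12 CPM in *Ptgs*-/- libraries, and at 3.42, 4.06 and 4.67 CPM with NK cell depletion. The untreated groups overlapped throughout, and all 3 libraries of NK cell-depleted mice were below every library of untreated mice. *Ptgs*-/- and *Ptgs*+/+ tumors of untreated mice differed by -0.15 on the log2 scale (95% interval -0.54 to 0.24). *Ptgs*-/- tumors of untreated mice were higher than those of NK cell-depleted mice by 0.97 (SE 0.20), or 1.96-fold, with an adjusted p of 0.0336. Against *Ptgs*+/+ tumors, the depleted group was lower by a log2 fold change of -1.12 (SE 0.19), with an adjusted p of 0.0026.

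The call between the *Ptgs*-/- groups was close to the threshold. Its fold change kept to 0.85 to 1.09 when each library was left out in turn, and the adjusted p ran from 0.0314 to 0.171 and was above 0.05 in 7 of the 10 cases. The 3 that kept the call left out *Ptgs*+/+ replicate 1, *Ptgs*+/+ replicate 3 or *Ptgs*-/- replicate 2. It was also lost within the first experiment code alone (1.01, adjusted p = 0.135), with the code as a term (adjusted p = 0.0704), with only both *Ptgs*-/- groups in the fit (0.97, adjusted p = 0.0982), with at least 10 counts asked of every library (0.99, adjusted p = 0.0636) and with the label number as a block (0.96, adjusted p = 0.0677). Behind these values lie 32 to 89 reads per *Ptgs*-/- library. The lower level of the depleted group against *Ptgs*+/+ tumors was called in each of these fits.

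**Figure D2:**
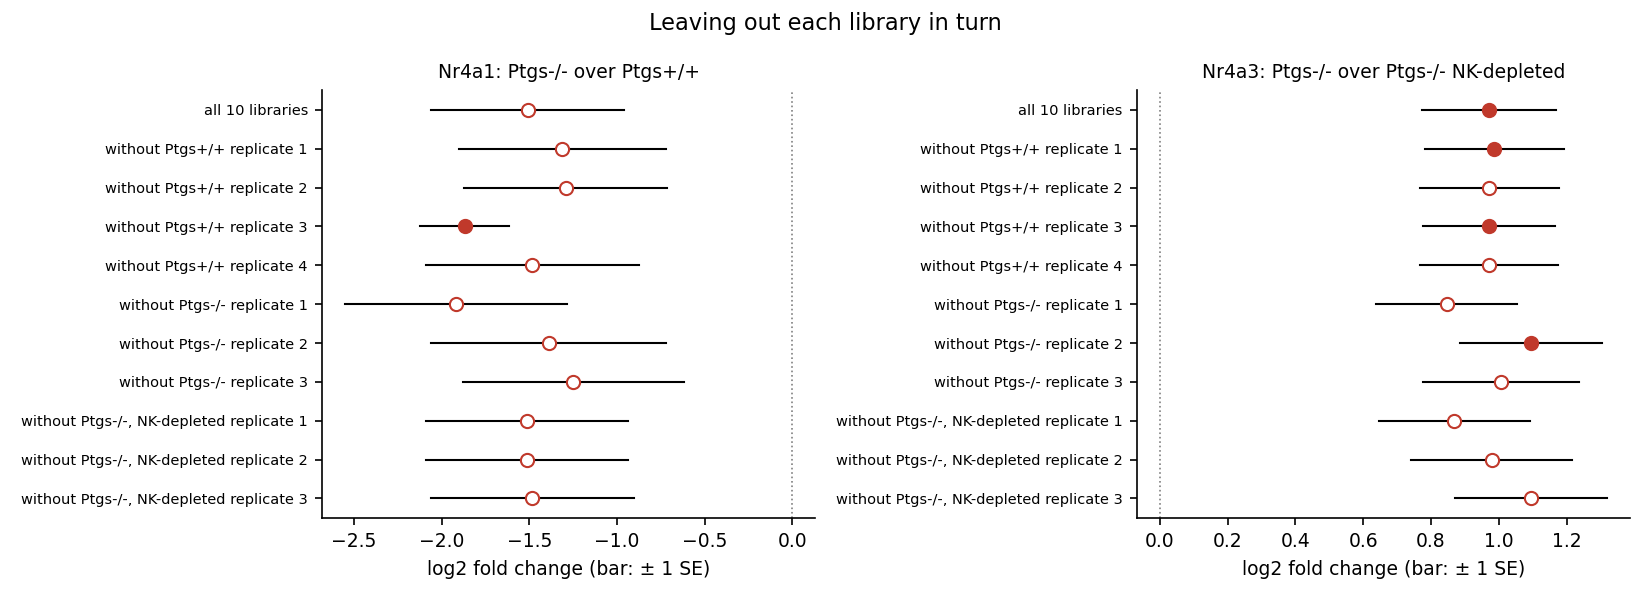
Log2 fold change (horizontal axis) of *Nr4a1* in *Ptgs*-/- over *Ptgs*+/+ tumors and of *Nr4a3* in *Ptgs*-/- tumors over *Ptgs*-/- tumors of NK cell-depleted mice, with all 10 libraries and without each in turn (vertical axis). Bars are 1 SE and filled points have an adjusted p at or under 0.05, which *Nr4a1* reached without *Ptgs*+/+ replicate 3, at -1.87.

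*Crem* encodes the cAMP response element modulator, whose many isoforms include activators and the inducible repressor ICER. The gene (ENSMUSG00000063889) lies on the minus strand of chromosome 18 from 3266048 to 3337748 and has 39 annotated transcripts. Its level was 19.5, 15.8, 15.6 and 19.4 CPM in *Ptgs*+/+ libraries. It was 10.6, 12.1 and 9.30 CPM in *Ptgs*-/- libraries and 9.52, 9.78 and 9.73 CPM with NK cell depletion. No *Ptgs*-/- library reached the lowest *Ptgs*+/+ library. *Crem* fell to 60.7% of the mean *Ptgs*+/+ level in *Ptgs*-/- tumors, a log2 fold change of -0.78 (SE 0.15, adjusted p = 0.00351), and to 55.1% with NK cell depletion, a log2 fold change of -0.89 (SE 0.15, adjusted p = 0.0027). Within the first code alone the changes were -0.60 (adjusted p = 0.0485) and -0.84. Between the *Ptgs*-/- groups the difference was 0.11, with an interval of -0.24 to 0.46. Reads from transcript ends do not separate isoforms that share an end, so no value for ICER alone was computed. An antisense gene, *Gm6225*, overlaps *Crem* and held 0 to 9 counts per library.

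*Pde4b* (ENSMUSG00000028525, chromosome 4 from 102087543 to 102607259, plus strand) and *Pde4d* (ENSMUSG00000021699, chromosome 13 from 108449948 to 109953461, plus strand) encode cAMP-specific phosphodiesterases and act as feedback on the pathway that induces them. *Pde4b* stood at 41.7, 36.7, 31.7 and 36.3 CPM in *Ptgs*+/+ libraries, at 12.4, 17.7 and 19.8 CPM in *Ptgs*-/- libraries, and at 16.5, 19.7 and 20.9 CPM with NK cell depletion. As for *Nr4a2*, the *Ptgs*+/+ libraries lay above all others without overlap. The log2 fold change was -1.19 (SE 0.16, adjusted p = 0.000614) in *Ptgs*-/- tumors and -0.98 (SE 0.16, adjusted p = 0.00261) with NK cell depletion, or 2.29-fold and 1.97-fold lower. The groups of *Ptgs*-/- tumors overlapped and differed by -0.22 (95% interval -0.60 to 0.17). Within the first code the values against *Ptgs*+/+ were -1.30 and -0.98.

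*Pde4d* was the lowest member, with 18 to 73 reads per library. It stood at 5.69, 5.15, 3.34 and 5.23 CPM in *Ptgs*+/+ libraries, at 2.21, 3.83 and 4.74 CPM in *Ptgs*-/- libraries, and at 3.32, 3.14 and 3.38 CPM with NK cell depletion. *Ptgs*+/+ replicates 1, 2 and 4 were above all *Ptgs*-/- libraries, and replicate 3 lay among them. The differences from *Ptgs*+/+ were -0.48 (95% interval -1.06 to 0.11, adjusted p = 0.227) and -0.60 (95% interval -1.19 to -0.01, adjusted p = 0.181), neither of them called. Without replicate 3 of *Ptgs*+/+ they were -0.62 (adjusted p = 0.092) and -0.74 (adjusted p = 0.0767). A pseudogene on the same strand inside *Pde4d*, *Rps3a3*, held 508 to 1992 counts per library and was counted as a gene of its own.

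**Figure D3:**
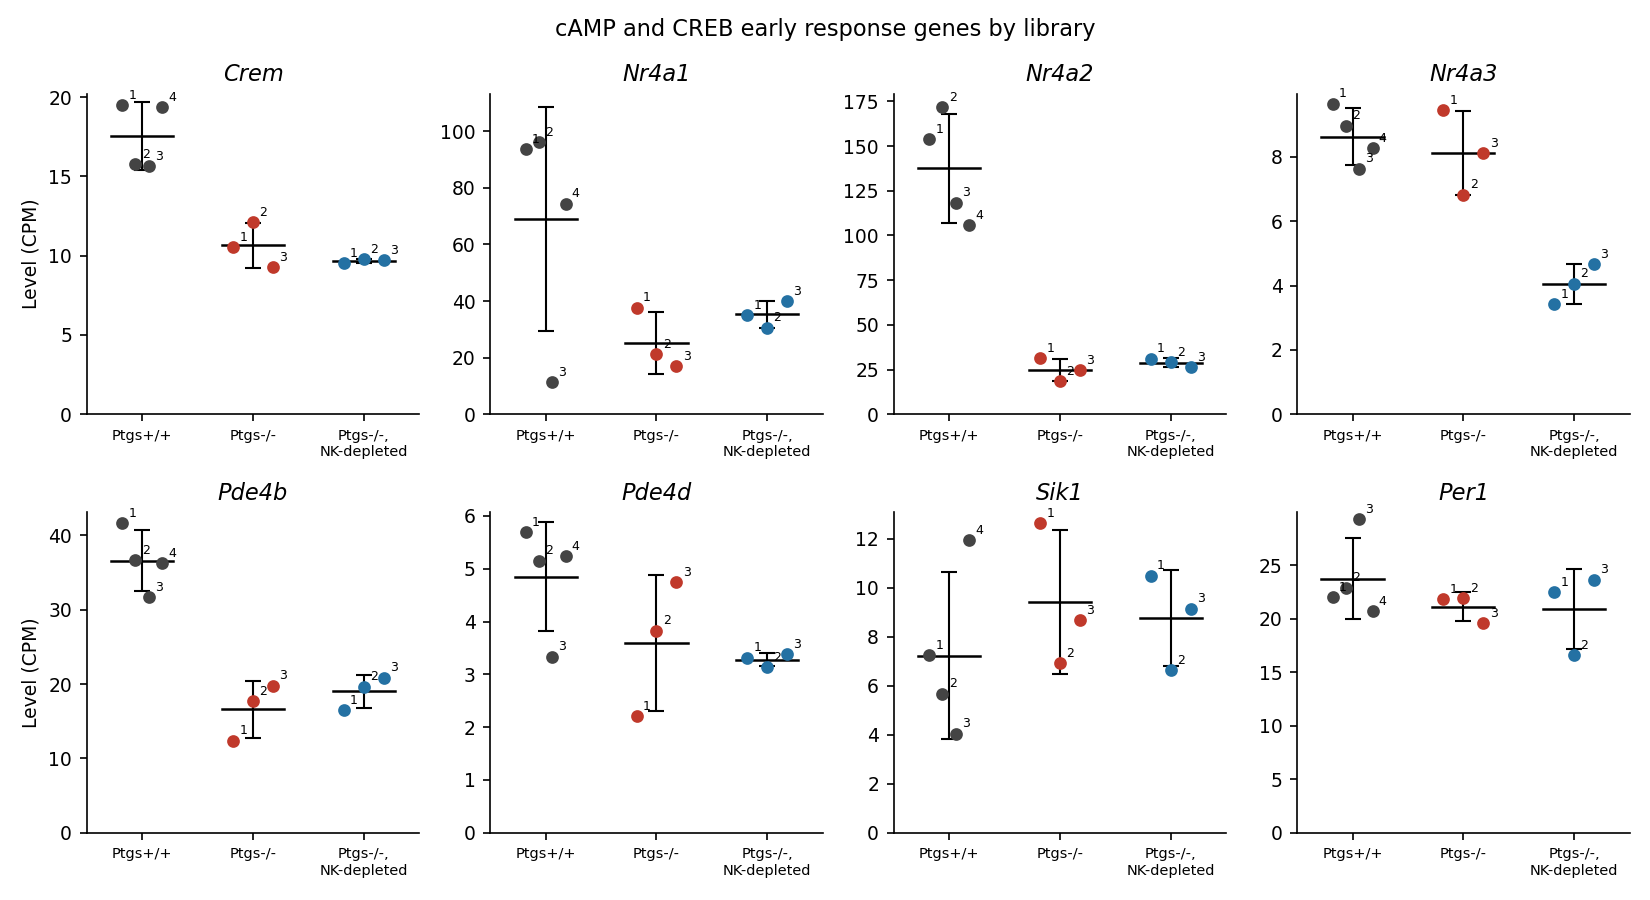
Level in CPM (vertical axes, each from 0) of the 8 members in the 4 *Ptgs*+/+, 3 *Ptgs*-/- and 3 NK cell-depleted *Ptgs*-/- libraries, with replicate numbers beside the points, lines at the means and bars of 1 SD. *Nr4a2*, *Pde4b* and *Crem* have no overlap between *Ptgs*+/+ and *Ptgs*-/- libraries, and *Nr4a3* is low in the NK cell-depleted group, at 3.42 to 4.67 CPM.

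*Sik1* and *Per1* showed no called difference. *Sik1* (ENSMUSG00000024042, chromosome 17 from 31844250 to 31855804, minus strand), the salt-inducible kinase, was at 7.24, 5.67, 4.04 and 11.9 CPM in *Ptgs*+/+ libraries, at 12.6, 6.93 and 8.66 CPM in *Ptgs*-/- libraries, and at 10.5, 6.64 and 9.14 CPM with NK cell depletion. The groups overlapped, and the *Ptgs*+/+ group alone ranged from the lowest value of all to nearly the highest. The difference of *Ptgs*-/- from *Ptgs*+/+ was 0.33 on the log2 scale with a 95% interval of -0.39 to 1.05. *Per1* (ENSMUSG00000020893, chromosome 11 from 69095217 to 69109960, plus strand), a repressor of the circadian clock that also responds to CREB, was at 22.0, 22.9, 29.3 and 20.7 CPM in *Ptgs*+/+ libraries, at 21.8, 21.9 and 19.6 CPM in *Ptgs*-/- libraries, and at 22.5, 16.6 and 23.6 CPM with NK cell depletion. Its group means lay between 20.9 and 23.7 CPM, and the 95% interval of the difference from *Ptgs*+/+ ran from -0.58 to 0.12 in *Ptgs*-/- tumors and from -0.57 to 0.13 with NK cell depletion.

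**Figure D4:**
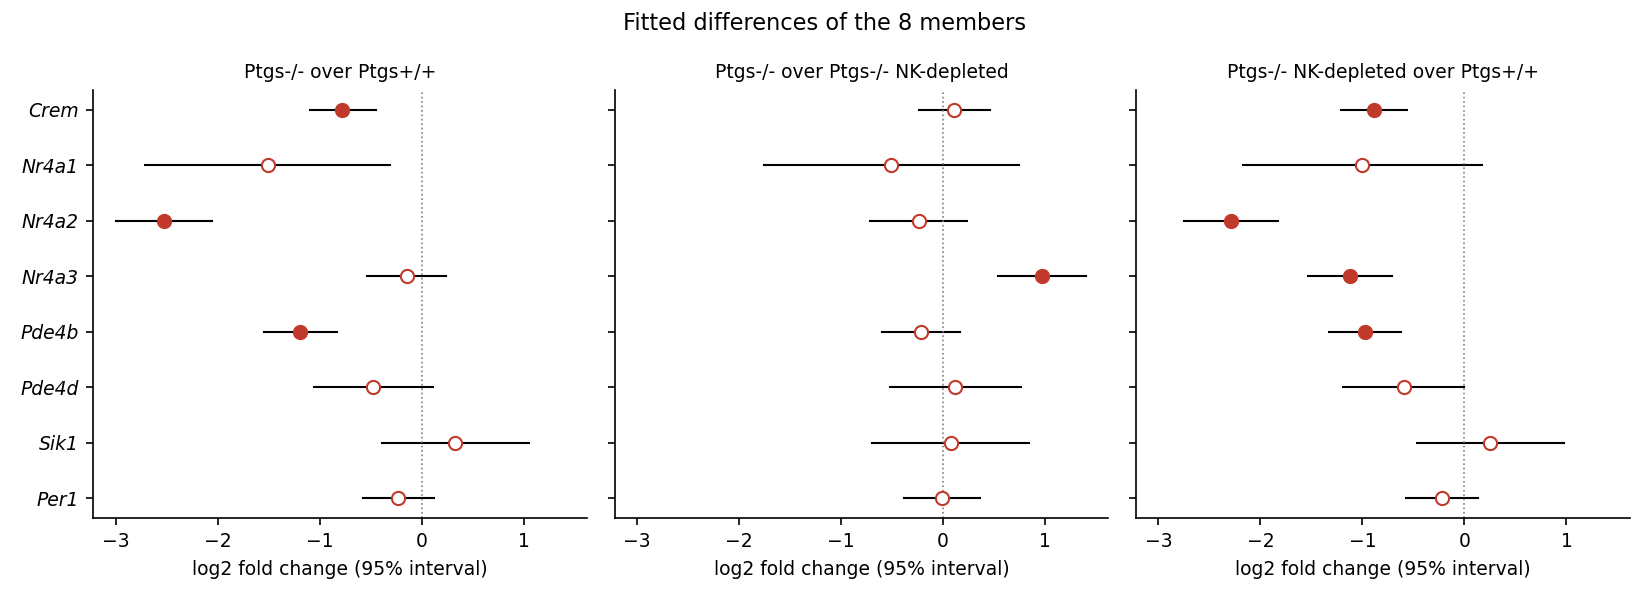
Fitted log2 fold change (horizontal axis) of each member with its 95% interval in the 3 comparisons, filled where the adjusted p was at or under 0.05. *Nr4a2* stands at -2.53 and -2.29 in the comparisons with *Ptgs*+/+, and *Nr4a3* is the filled point between the *Ptgs*-/- groups, at 0.97.

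Ranked by mean level, *Nr4a2* was the highest member in *Ptgs*+/+ tumors and *Nr4a1* the next, at 68.9 ± 39.6 CPM (SD, n = 4), a pair whose ranges do not overlap. The wide range of *Nr4a1* overlapped with that of *Pde4b*, which followed at 36.6 ± 4.08, then *Per1* at 23.7 ± 3.83 and *Crem* at 17.6 ± 2.15. *Nr4a3* at 8.63 ± 0.87, *Sik1* at 7.22 ± 3.40 and *Pde4d* at 4.85 ± 1.04 closed the order, and the ranges of *Sik1* overlapped with those of both its neighbours. In *Ptgs*-/- tumors *Nr4a1*, *Nr4a2* and *Per1* could not be ordered beyond their spread, with means of 25.3 ± 10.9, 24.9 ± 6.28 and 21.1 ± 1.32 CPM (SD, n = 3). *Pde4b* followed there at 16.6 ± 3.81 CPM (SD, n = 3), and its range overlapped with each of theirs. With NK cell depletion *Nr4a1* at 35.3 ± 4.70 and *Nr4a2* at 28.8 ± 2.46 were the highest, with ranges that overlapped each other and not that of *Per1*. Over the 10 libraries the log2 levels of *Nr4a2* and *Crem* had a Pearson r of 0.90, and *Nr4a2* and *Pde4b* also 0.90, but within groups r was -0.31 and -0.27. These correlations followed the differences between the groups, and the values of 1 library share its depth. *Pde4b* and *Pde4d* were alike in both ways, with r of 0.82 over all libraries and 0.87 within groups.

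Of 73 other genes of the cAMP pathway listed by role, 65 were tested. In *Ptgs*-/- against *Ptgs*+/+ tumors 10 rose and 9 fell, which is 15.4% and 13.8% of those tested and near the shares of all genes. With NK cell depletion 10 rose and 7 fell against *Ptgs*+/+, which is 15.4% and 10.8% of those tested, beside 6.63% and 5.87% of all genes. Between the *Ptgs*-/- groups 2 were lower in untreated mice, or 3.08% beside 0.921% of all genes, and none was higher. The parts of the pathway moved in different directions.

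At the receptors, *Ptger4* (EP4) rose from a mean of 16.6 CPM in *Ptgs*+/+ tumors to 33.99 CPM in *Ptgs*-/- tumors, a log2 fold change of 0.98 (adjusted p = 0.0023), and stood at 28.3 CPM with NK cell depletion (0.74, adjusted p = 0.016). *Ptger2* (EP2) was scarce, rose from 1.32 to 3.41 CPM in untreated mice (1.29, adjusted p = 0.029) and was the other of 4 PGE2 receptor genes to pass. None of the 5 G protein genes passed in any comparison. *Gnas*, which encodes the alpha subunit of the stimulatory G protein, was counted at low levels. It stood at 3.815 to 5.997 CPM in *Ptgs*+/+ libraries, 4.049 to 5.653 CPM in *Ptgs*-/- libraries and 3.103 to 4.867 CPM with NK cell depletion. Whether its reads were fully counted was not tested. Of 6 adenylyl cyclases tested, *Adcy7*, the cyclase typical of hematopoietic cells, rose by 1.18 in untreated mice and 0.79 with NK cell depletion, and *Adcy4* fell by 0.94 in untreated mice. Among the 9 PKA genes, the catalytic subunit genes *Prkaca* and *Prkacb* did not pass. The regulatory subunit *Prkar2b* fell by 0.64 and 0.46, the inhibitor *Pkig* fell by 0.64 and 0.55, and the inhibitor *Pkib* rose by 1.40 and 1.07, in the same order. Another inhibitor, *Pkia*, was at 40.2 CPM with NK cell depletion against 20.6 CPM in *Ptgs*-/- tumors of untreated mice and 19.2 CPM in *Ptgs*+/+ tumors, and passed in both comparisons that involve the depleted mice.

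*Rapgef3*, which encodes the exchange factor EPAC1 that cAMP activates without PKA, had the lowest adjusted p of the listed pathway genes. Its level was 60.6 to 80.2 CPM in the 4 *Ptgs*+/+ libraries, 175 to 224 CPM in the 3 *Ptgs*-/- libraries and 201 to 220.0 CPM with NK cell depletion. Every *Ptgs*-/- library was above every *Ptgs*+/+ library, and the log2 fold changes from *Ptgs*+/+ were 1.43 (SE 0.11, adjusted p = 3.55e-05) and 1.54 (SE 0.11, adjusted p = 3.65e-05). *Creb1* itself was at 92.4 to 103 CPM in *Ptgs*+/+ libraries and 90.1 to 96.9 CPM in *Ptgs*-/- libraries and did not pass. Of the 7 CREB factors and coactivators, the acetyltransferase gene *Ep300* alone passed, with a rise of 0.42 and 0.41 against *Ptgs*+/+. Among 11 other cAMP phosphodiesterases tested, *Pde1a* fell by 1.21 and 0.69, *Pde1b* rose by 0.69 in untreated mice, and *Pde11a* was highest with NK cell depletion (10.7 CPM against 4.93 in *Ptgs*+/+ and 4.39 in *Ptgs*-/- tumors). Of the 4 relatives of *Sik1* and *Per1*, the clock gene *Per3* rose by 0.66 and 0.96.

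**Figure D5:**
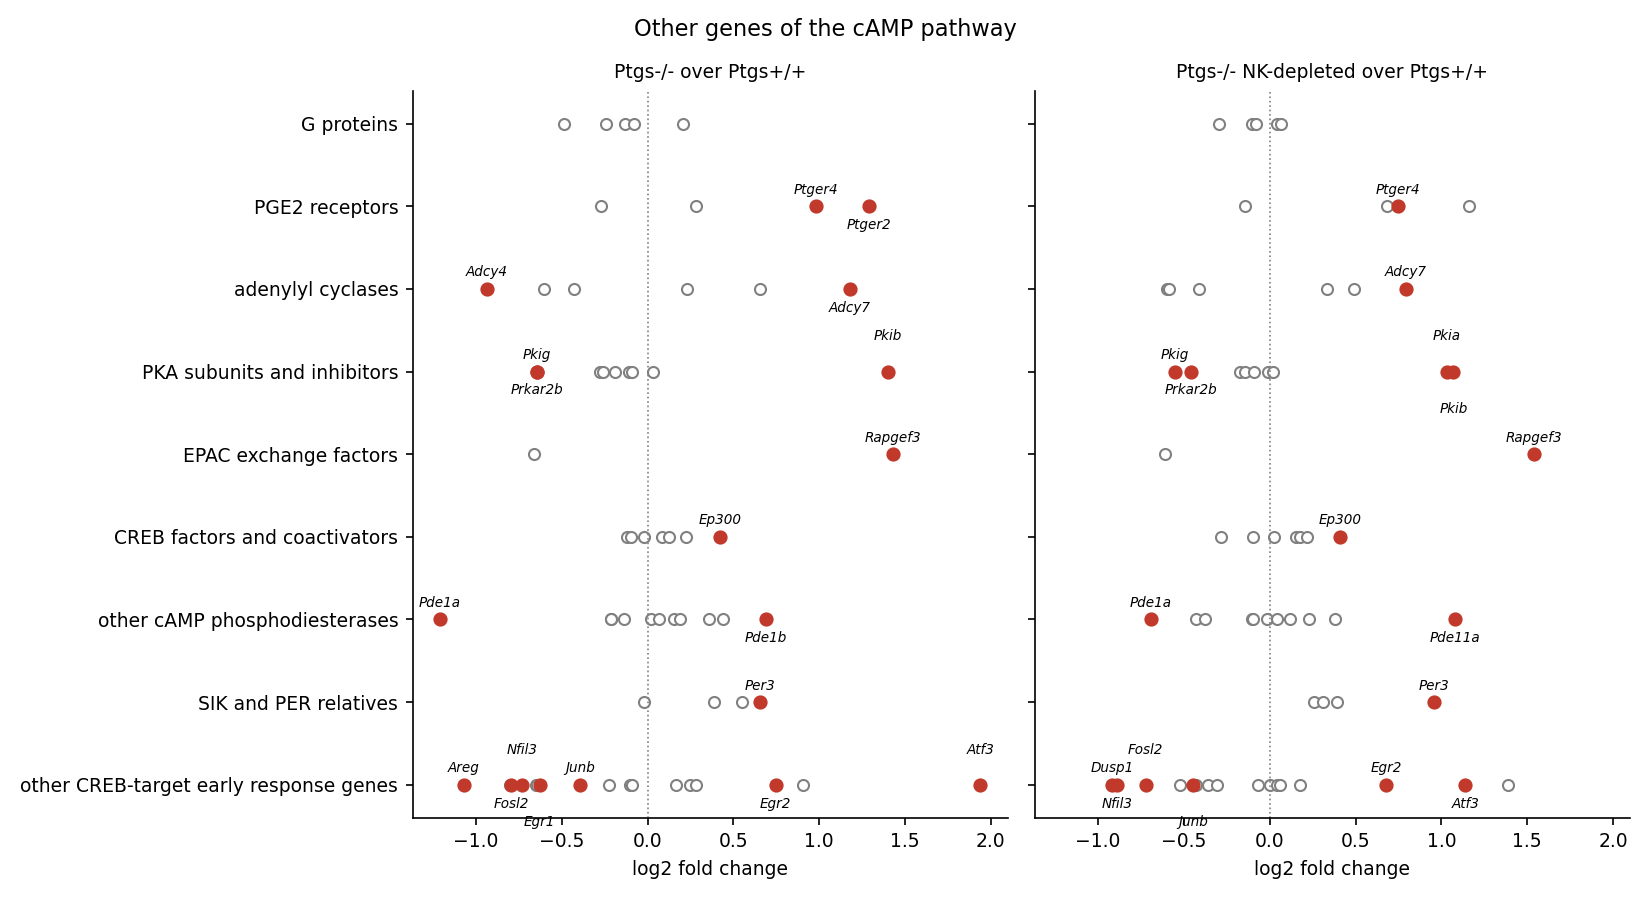
Log2 fold change (horizontal axis) of the tested genes of 9 cAMP pathway lists (vertical axis) in *Ptgs*-/- tumors and in NK cell-depleted *Ptgs*-/- tumors, both over *Ptgs*+/+ tumors. Filled, named points have an adjusted p at or under 0.05, and *Rapgef3* is the filled point furthest to the right in the panel with NK cell depletion, at 1.54.

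Other early response genes that CREB can induce were divided. Of 17 tested, 5 fell and 2 rose in *Ptgs*-/- tumors, and 4 fell and 2 rose with NK cell depletion. *Areg*, an EGF receptor ligand, fell by 1.07, *Fosl2* of the AP-1 family by 0.80 and the repressor *Nfil3* by 0.73 in untreated mice. *Atf3*, a stress-induced factor of the CREB family, rose by 1.94, from 3.51 to 8.06 CPM in *Ptgs*+/+ libraries to 20.3 to 37.1 CPM in *Ptgs*-/- libraries. *Egr2* rose by 0.75. With NK cell depletion the falls were *Dusp1* at 0.92, *Nfil3* at 0.89, *Fosl2* at 0.72 and 1 other gene, and *Atf3* and *Egr2* rose by 1.14 and 0.68. *Fos*, the best known of these genes, was at 23.9 to 42.3 CPM in *Ptgs*+/+ libraries and 21.2 to 50.2 CPM in *Ptgs*-/- libraries, which overlapped, and did not pass. None of the 17 passed between the *Ptgs*-/- groups.

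Several members answer to the clock, to glucocorticoids or to stress as well as to cAMP, so the genes of those responses are given beside them. Of 12 clock genes tested *Hlf* rose in *Ptgs*-/- tumors (1.86), and *Hlf* (2.40) and *Tef* (0.57) rose with NK cell depletion. Of 5 glucocorticoid-induced genes *Tsc22d3* rose in both (0.75 and 0.73). Of 8 heat-shock genes 7 fell in *Ptgs*-/- tumors, among them *Hspa1a* by 1.27, *Hspa1b* by 1.04 and *Hspb1* by 1.04, and 3 fell with NK cell depletion. *Hspb1* was also lower in untreated than in NK cell-depleted mice with *Ptgs*-/- tumors, at 6.24 and 14.4 CPM. The summed level of the heat-shock genes was 1420 to 1750 CPM in *Ptgs*+/+ libraries, 1020 to 1230 CPM in *Ptgs*-/- libraries and 1120 to 1300 CPM with NK cell depletion. Their part in the members' levels was not tested.

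Markers of infiltrating cells moved with the same comparisons. Of 9 neutrophil markers tested 5 fell in *Ptgs*-/- tumors, and with NK cell depletion 5 fell and 1 rose. The marker that rose was *Retnlg*, with means of 5.41 CPM in *Ptgs*+/+, 6.75 CPM in *Ptgs*-/- and 18.7 CPM in depleted mice. *Csf3r* did not pass, but stood at 2.02 to 4.44 CPM in *Ptgs*+/+ libraries and higher, at 5.17 to 5.75 CPM, in *Ptgs*-/- libraries of untreated mice. Between the *Ptgs*-/- groups 2 of the 9, *S100a8* and *S100a9*, were lower in untreated mice. The summed level of the 12 listed was 444 to 681 CPM in *Ptgs*+/+ libraries, 110 to 163 CPM in *Ptgs*-/- libraries and 174 to 233 CPM with NK cell depletion. *Mmp9* and *S100a8*, the most abundant of them, averaged 290.0 and 113 CPM in *Ptgs*+/+ tumors and 33.5 and 18.8 CPM in *Ptgs*-/- tumors. *Ly6g* had no count in *Ptgs*-/- libraries of untreated mice, and *Ngp* had none in the other groups. Both genes were near the detection floor where they had counts, so their zeros separate no groups. *Ly6g* was at 0 to 0.389 CPM in *Ptgs*+/+ libraries and 0 to 0.0993 CPM with NK cell depletion. *Ngp* was at 0 to 0.182 CPM in *Ptgs*-/- libraries of untreated mice. Of 12 macrophage markers 9 rose in *Ptgs*-/- tumors and 3 with NK cell depletion, with sums of 2760 to 3400 CPM in *Ptgs*+/+, 4600 to 7050 CPM in *Ptgs*-/- and 4230 to 4460 CPM in depleted mice. *Lyz2* and *C1qa*, their most abundant, averaged 924 and 764 CPM in *Ptgs*+/+ tumors and 1849 and 1430 CPM in *Ptgs*-/- tumors.

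Of 11 NK cell markers tested, 10 rose in *Ptgs*-/- tumors, and 10 were higher there than with NK cell depletion. The sum of the 12 listed was 23.7 to 57.0 CPM in *Ptgs*+/+, 126 to 261 CPM in *Ptgs*-/- and 15.9 to 21.1 CPM in depleted mice. *Ncr1* and *Prf1* had no count in depleted mice, where *Il2rb* and *Gzma* averaged 4.58 and 0.256 CPM, against 49.9 and 49.1 CPM in untreated mice with *Ptgs*-/- tumors. Of 12 skeletal muscle markers 5 rose in *Ptgs*-/- against *Ptgs*+/+ tumors of untreated mice. In the comparisons with depleted mice, 10 were lower in *Ptgs*-/- tumors of untreated mice than with NK cell depletion, and all 12 were higher with NK cell depletion than in *Ptgs*+/+ tumors. Their sum was 35.2 to 222 CPM in *Ptgs*+/+, 152 to 514 CPM in *Ptgs*-/- and 2860 to 6970 CPM in depleted mice, with *Acta1* and *Myh4* at 1807 and 712 CPM on average in the latter. Between the *Ptgs*-/- groups *Nr4a3* moved with the called NK cell markers. It moved against the called muscle markers and against *S100a8* and *S100a9*. Between *Ptgs*-/- and *Ptgs*+/+ tumors *Nr4a2*, *Pde4b* and *Crem* moved with the 5 called neutrophil markers of 9 tested. They moved against the called macrophage, NK cell and muscle markers. The part of these cells in the members' levels was not tested.

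Other stromal and immune lists moved as well in *Ptgs*-/- against *Ptgs*+/+ tumors of untreated mice. Of the markers tested, 7 of 8 for T cells, 5 of 8 for dendritic cells, 5 of 8 for fibroblasts and 2 of 2 for B cells rose, and 3 of 8 for endothelial cells and 1 of 3 for keratinocytes fell. None of 8 adipocyte and 6 mast cell markers passed in any comparison, although the adipocyte sum ran from 216 to 5110 CPM over the libraries.

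The genes most like each member over the 10 libraries were named among 10679 tested genes of at least 2 mean log2 CPM, by Pearson r of log2 CPM, as a description. For *Nr4a2* they were *Mtap*, *Ereg* and *Il1rl1*, all with r of 0.99. *Ereg*, like *Areg* a ligand of the EGF receptor, was at 109 to 164 CPM in *Ptgs*+/+ libraries and 21.6 to 39.1 CPM in *Ptgs*-/- libraries. For *Pde4b* they were *Cxcl14* (0.99), *Col18a1* (0.97) and *Ptgfr* (0.97), a chemokine, a collagen and the receptor of prostaglandin F2α, and *Ptgfr* was at 17.6 to 24.7 CPM in *Ptgs*+/+ libraries and 2.21 to 3.93 CPM in *Ptgs*-/- libraries. For *Crem* they were *Vcan*, *Noct* and *Fgf7*, all with r of 0.97. For *Nr4a3* r over all libraries was lower than for these members, at 0.89 for *Sh2d5* and 0.88 for *Pds5a* and *Adam8*. After the group means were subtracted it was 0.59, 0.88 and 0.55, in the same order. Within groups the genes named for *Nr4a2* had r of 0.84 to 0.91, those for *Pde4b* 0.67 to 0.92 and those for *Crem* 0.68 to 0.75. The genes most like *Pde4d* over all libraries were *Chst7* (0.94), *Itga9* (0.93) and *Qrsl1* (0.91). For *Sik1* they were *Zdhhc17* (0.96), *Bet1* (0.95) and *Ttc7b* (0.95), and for *Per1* *Eapp* (0.92), *Zfp318* (0.92) and *Ddx10* (0.89).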

How the data were processed

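RNA of 10 whole tumors was sequenced with a QuantSeq 3′ kit. After trimming and STAR alignment to GRCm38, the authors counted reads per gene of Ensembl version 86 and deposited these raw counts, not normalized, with 1 column per tumor. Whether counting used strand is not given in the sources used here, so overlapping and antisense genes are uncertain. Identifiers were named by GENCODE M21 (45143 of 45706), and promoters came from RefSeq (GRCm38.p6). Groups came from the submitters' labels. The paper's depletion schedule differs from that of the labels, which is the one given here.

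The main analysis used edgeR 4.0.16 under R 4.3.3 (filterByExpr, TMM, quasi-likelihood test, all 10 libraries in 1 model of 3 group means, Benjamini-Hochberg adjustment over 14550 genes), and DESeq2 1.42.0 served as an alternative. The fitting was tested on simulated data. CPM are counts scaled by library size, log2 CPM uses a prior count of 2, and intervals are 95%. The detection floor of 3 counts covers counting error only. Replicates differed by a chi-square of 8.06 to 33.2 per degree of freedom, so none was counted more than once.

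The members and lists were chosen with earlier results of these data known. Genes named from a list passed the test, at most 3 in each direction by fold change per comparison. The markers named are a list's 2 most abundant and those without counts in a group. *S100a9*, *Retnlg* and *Csf3r* were added after their values were seen. *Fos*, *Creb1*, *Crtc2*, *Gnas*, *Prkaca*, *Prkacb* and the genes that overlap members were named after their values were seen. Alternatives were DESeq2, other normalizations, filters, tests and thresholds, the groups compared alone, the experiment code, the label number as a block, and each library left out.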

Additional observations from a re-analysis of the deposited data

Results flagged for a closer look

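The level of *Nr4a1* in *Ptgs*+/+ replicate 3, 11.3 CPM, was far from the other 3 libraries of its group. On the log2 scale the gap to the nearest of them took 0.862 of the group's range, above Dixon's 95% critical value for 4 samples, and on the CPM scale it took 0.744 and was not above it. The 8 members were looked at in this group, on both scales. Chance alone marks about 1 in 20 groups on 1 scale, and more where a mark on either scale counts, as here. The same library had 86 genes at under 1/3 of the lowest other *Ptgs*+/+ value. The groups of 3 libraries were not tested in this way.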

How the results depend on the processing

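Of 480 values of the 24 member fold changes under the alternatives, 447 kept their direction and their side of the threshold, 12 lost the call, 4 gained it and 17 changed sign without ever being called. The falls of *Nr4a2*, *Pde4b* and *Crem* against *Ptgs*+/+ in both hosts, and that of *Nr4a3* with NK cell depletion, had an adjusted p at or under 0.05 in every alternative fit.
All 12 lost calls were *Nr4a3* between the *Ptgs*-/- groups, and the 4 gained were *Nr4a1*. The members called there were 0, in place of 1, with at least 10 counts in every library, only the groups compared, the code as a term, the first code alone and the block. Leaving out each library gave 0 to 1 there, with the call lost without *Ptgs*+/+ replicates 2 or 4, *Ptgs*-/- replicates 1 or 3 or any depleted replicate. Whether the label numbers pair the tumors could not be settled. Over 11 same-numbered pairs the deviations correlated at -0.244 to 0.355, and 4 exceeded 0.1. Differently numbered pairs ran from -0.426 to 0.166, and some same-numbered pairs carry different experiment codes. With the label number as a replicate block, *Nr4a3* stood at 0.96 (adjusted p = 0.0677), and no other call of a member changed.
Adding the fold threshold left 1, 0 and 1 members and 604 and 395 of all genes in the comparisons with *Ptgs*+/+. Between the *Ptgs*-/- groups, 209 of all genes were called, against 383 with DESeq2 (209 higher and 174 lower, in place of 75 and 134), 408 without a filter, 42 with at least 10 counts, 403 with the likelihood ratio test and 93 within the first code, which called 2222 against *Ptgs*+/+. Leaving out each library gave 2062 to 3881 calls over all genes for *Ptgs*-/- against *Ptgs*+/+ (lowest without *Ptgs*-/- replicate 2), 106 to 411 between the *Ptgs*-/- groups (moved over 1.5 times without any *Ptgs*-/- replicate or depleted replicates 2 and 3) and 909 to 2116 for depleted mice against *Ptgs*+/+ (moved without *Ptgs*+/+ replicate 2 or any depleted replicate).
Values of *Per1*, *Pde4d* and *Sik1* between the *Ptgs*-/- groups lay around 0. *Per1* was 0.0030 with DESeq2, 0.016 with library size alone, 0.0097 with upper-quartile factors, 0.013 with at least 10 counts, 0.072 with the code as a term, 0.077 in the first code, 0.0061 with the block and -0.15 to 0.098 with each library left out. *Pde4d* was -0.018 with the code as a term, -0.096 in the first code and -0.096 to 0.35 with each library left out. *Sik1* was -0.069 with the code as a term and -0.20 to 0.27 with each library left out. Causes were not tested. The 18 to 73 reads of *Pde4d* and the 32 to 124 of *Nr4a3* per library limit their precision.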
